A study of Mesocricetus auratus with 21 samples.

Results

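*Nxf7* and *Nxt2*, a pair of nuclear RNA export genes of the golden hamster, were followed through 21 RNA-seq libraries of whole testes. They are 2 of the 22285 genes in the count table. The pair was chosen by its counts, as a pair of genes lower in young testes without *Mov10l1*. Genotype differences at 0, 9 and 13 days post partum (d.p.p.) are therefore a description here, with no test. The knockout carries a deletion of exon 20 of *Mov10l1*, which encodes part of the helicase needed to make PIWI-interacting RNAs, and the allele came through 1 founder female. *Mov10l1*+/+ (wild-type) and *Mov10l1*-/- testes were sampled at 0, 9, 13 and 21 d.p.p. and in adults, with 2 libraries per genotype and age and 1 more wild-type library at 9 d.p.p. Adults were aged 65 and 23 weeks if wild type and 63 and 53 weeks if knockout.

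Export factors of the NXF family carry messenger RNA through the nuclear pore. They work as heterodimers with a small NXT partner that resembles nuclear transport factor 2. The general pair is NXF1 with NXT1. Paralogs such as NXF2, and the partner NXT2, are best known from germ cells, and in fruit flies an NXF paralog takes part in piRNA-guided silencing. During testis development the germ cells pass from fetal-type gonocytes through spermatogonia to meiosis.

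*Nxf7* is gene ENSMAUG00000019822, on the minus strand of scaffold KB708160.1, bases 329321 to 341490 (MesAur1.0). The annotation describes it as nuclear RNA export factor 2, a description it shares with *Nxf2* (ENSMAUG00000011804), which lies 329807 bases beyond it on the same scaffold, on the plus strand from 671298 to 687548. *Nxt2*, the nuclear transport factor 2 like export factor 2 (ENSMAUG00000000496), lies on scaffold KB708255.1 from 1455294 to 1469809 on the plus strand. *Nxf7* and *Nxf2* are paralogs, and a read that maps to both would add a fraction to each. The counts of *Nxf7*, *Nxt2* and *Nxf2* were whole numbers in 21 of 21 libraries, against 90.31% of all values in the table. Gene lengths were not used, so levels are compared between libraries and not between these genes.

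Levels are in CPM, the count of a gene scaled to a common library total, with totals adjusted by the TMM method over the 21 libraries. Totals ranged from 3550217 counts in a wild-type library of 13 d.p.p. to 77527451 in one of 9 d.p.p., and 3 counts, the floor used here, corresponded to between 0.0379 and 0.7704 CPM. Single-end reads were used for 0 and 9 d.p.p. and paired-end reads for later ages, so ages were compared only within each kind. As a check of the labels, mean *Mov10l1* in the knockout was between 0.11% and 15.34% of the wild-type mean over the 5 ages, with no overlap of libraries at any age. *Dazl*, a defining gene of germ cells, had at least 23 counts in every knockout library, while *Ddx4* had 2 and 13 counts in those of 21 d.p.p. Both were far below the wild type at that age. *Dazl* was at 1.48 and 1.91 CPM in the knockout against 196 and 152 CPM, and *Ddx4* at 0.129 and 0.382 CPM against 366 and 238 CPM. *Lin28a* had at most 3 counts in each knockout library of 13 and 21 d.p.p. At 9 d.p.p. a single animal code, and so 1 animal, stands behind both knockout libraries. Animal codes begin with a part that some animals share, called the litter code here, and the meaning of that part is not stated by the study. In whole testis, fewer cells of a type and less RNA per cell cannot be told apart.

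*Nxf7* fell after birth. Wild-type libraries stood at 62.9 and 64.5 CPM at 0 d.p.p. and at 1.97, 1.72 and 4.501 CPM at 9 d.p.p. The groups were far apart, with the highest library of 9 d.p.p. well below both newborn libraries. The fall was 23.3-fold between the means, or -4.58 as log2 (standard error, SE, 0.317, adjusted p = 4.12e-06, edgeR quasi-likelihood test of 3 libraries against 2). In that test 25% of all tested genes were called lower and 27.5% higher at an adjusted p below 0.01. Across every alternative setting the log2 fold change lay between -5.12 and -4.34 and stayed called. Wild-type libraries of 0, 9 and 13 d.p.p. also entered the genotype differences that chose the pair. *Nxf7* has an identifier only through the study's list of genes changed at 0 d.p.p. For both genes the p-values of age comparisons that use those libraries are therefore a description and not independent support. Wild-type libraries of 13 d.p.p. were at 0.940 and 1.03 CPM, which rests on 9 and 4 counts. At 21 d.p.p. they held 1 and 19 counts, or 0.119 and 1.22 CPM, and the groups of 13 and 21 d.p.p. overlapped. Adult wild-type libraries held 4 and 1 counts, or 0.133 and 0.0570 CPM. The comparisons of 21 against 13 d.p.p. and of adults against 21 d.p.p. left *Nxf7* below edgeR's filter on low counts. With no filter their log2 differences were -0.22 (SE 0.803, adjusted p = 0.926) and -2.58 (SE 0.833, adjusted p = 0.00542), and in the joint fit of paired-end libraries the latter was -2.82 (adjusted p = 0.0178, edgeR), not called.

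*Nxt2* had no such peak. Wild-type libraries held 6.56 and 5.50 CPM at 0 d.p.p. and 6.02, 7.51 and 2.84 CPM at 9 d.p.p., a log2 difference of -0.16 (SE 0.328, adjusted p = 0.674, edgeR). The 2 ages overlapped. This difference turned to 0.14 when wild-type replicate 3 of 9 d.p.p. was left out. Paired-end wild-type libraries held 11.6 and 6.42 CPM at 13 d.p.p., 8.12 and 8.99 CPM at 21 d.p.p. and 10.4 and 13.6 CPM in adults. The log2 difference of 21 against 13 d.p.p. was 0.07 (SE 0.426, adjusted p = 0.941) and that of adults against 21 d.p.p. was 0.61 (SE 0.241, adjusted p = 0.0545), neither called. The adult wild-type libraries were both above both of 21 d.p.p. The share of all tested genes called higher was 3.54% and 28.9% in these comparisons and the share called lower 0.668% and 22.9%.

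**Figure D1:**
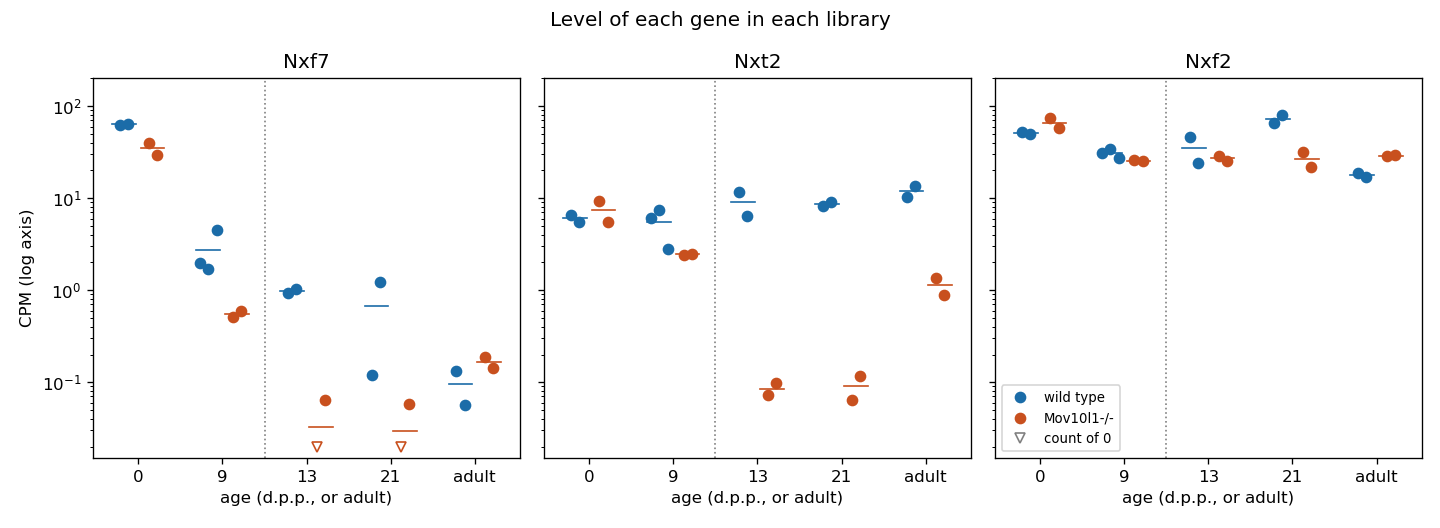
CPM (log axis) of *Nxf7*, *Nxt2* and *Nxf2* in each library by age, with wild type in blue, *Mov10l1*-/- in orange, group means as lines, and libraries with a count of 0 as open triangles at the foot. The dotted line separates single-end from paired-end libraries. Wild-type *Nxf7* was at 62.9 and 64.5 CPM at 0 d.p.p. and at most 4.501 CPM at 9 d.p.p. Knockout libraries of *Nxt2* lay at or below 0.117 CPM at 13 and 21 d.p.p. and at 1.36 and 0.895 CPM in adults.

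In the newborn knockout the members differed from each other. *Nxf7* was at 40.1 and 29.7 CPM, below both wild-type libraries, and its knockout mean was 54.83% of the wild-type mean (log2 fold change -0.86, SE 0.134). *Nxt2* was at 9.33 and 5.56 CPM in the knockout. Its groups overlapped, and its log2 fold change of 0.29 (SE 0.221) turned to -0.12 without knockout replicate 1. So 1 of the 2 genes was lower at this age, and *Nxt2* went against the description of the pair. Of all tested genes 0.931% were called lower and 1% higher. The summed level of 23 germ cell genes was 1999 and 1737 CPM in wild-type libraries and 2250 and 1751 CPM in those of the knockout, so it overlapped between genotypes. The 4 Sertoli cell genes with an identifier, of 11 listed, summed to between 1804 and 2085 CPM in wild-type libraries. In the knockout they summed to between 1084 and 1390 CPM, with no overlap, and 2 of the 4 were called lower (median log2 fold change -0.68). Identifiers of both lists came from the study's tables of changed genes, those of 0 d.p.p. included. These sums and calls are therefore a description and not independent support. The part of Sertoli cell genes in the difference of *Nxf7* was not tested. No litter code holds both genotypes at 0 d.p.p., and litter code and genotype cannot be told apart there. Both knockout libraries of this age share 1 litter code, and the wild-type libraries each have a different one. The SEs and shares called therefore do not measure the spread between litter codes of the knockout.

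At 9 d.p.p. the knockout libraries were at 0.507 and 0.600 CPM of *Nxf7* and 2.41 and 2.499 CPM of *Nxt2*. All were below the 3 wild-type libraries, and of all tested genes 3.19% were called lower and 0.559% higher. Those shares, like every fit of genotype at this age, take the 2 libraries of the 1 knockout animal as replicates, so they do not measure the spread between knockout animals. Over wild-type replicates 1 and 2 and both knockout libraries, the libraries named in the study's source data, the log2 fold change of *Nxf7* was -1.75 (SE 0.207) and that of *Nxt2* -1.47 (SE 0.147). The study lists *Nxt2*, and not *Nxf7*, among its genes changed at this age. Wild-type replicate 3 stood apart from the other wild-type libraries in opposite directions for the pair. It held the most *Nxf7*, at 4.501 CPM, and the least *Nxt2*, at 2.84 CPM. With it in the fit, the log2 fold change of *Nxf7* grew to -2.31 (SE 0.467) and that of *Nxt2* shrank to -1.17 (SE 0.347).

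That library is also the only wild-type one with the litter code of the knockout animal. Set against it alone, the knockout mean of *Nxf7* was 12.29% of the wild-type value, with a 95% counting interval of 9.404% to 16.01% for the pooled counts. The knockout mean of *Nxt2* was 86.54%, with an interval of 71.55% to 105.2%, so a lower level of *Nxt2* was not detectable at this depth within the shared litter code. Without that library the knockout means were 29.99% of wild type for *Nxf7* and 36.29% for *Nxt2*. Counting intervals cover counting error only and not the spread between animals. The summed germ cell genes were at 565, 526 and 437 CPM in wild-type libraries, above 217 and 236 CPM in knockout ones. Between genotypes the sum was lower along with both members. These genes have identifiers through the study's tables of changed genes, those of 9 d.p.p. included. A lower sum in the knockout was therefore largely fixed in advance and is no independent support. Among the wild-type libraries replicate 3 had the lowest sum, the lowest *Nxt2* and the highest *Nxf7*. The part of germ cell genes in the genotype differences was not tested.

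**Figure D2:**
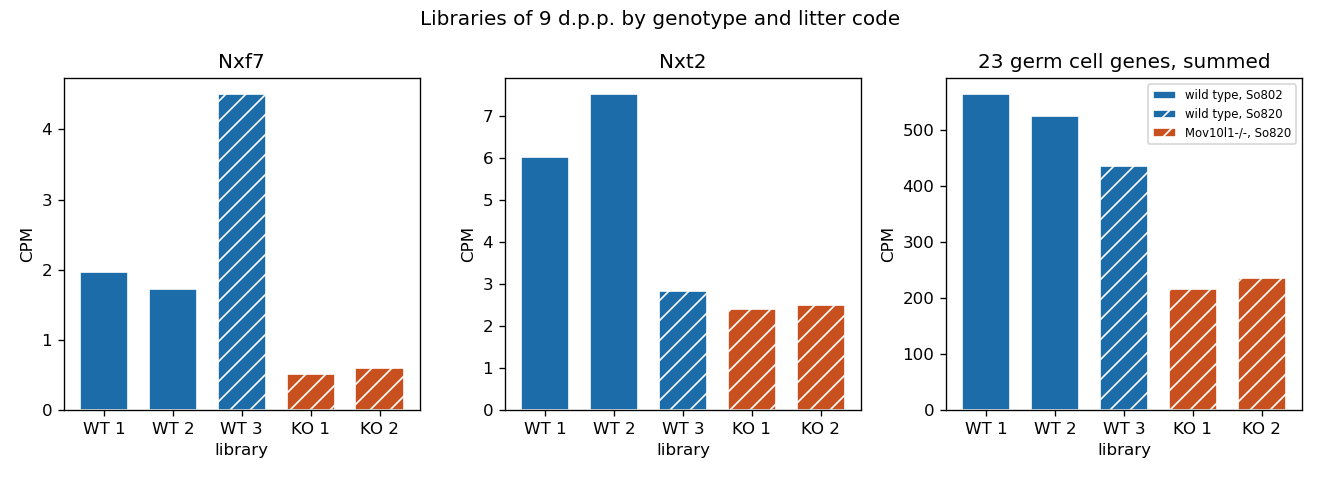
CPM of *Nxf7*, of *Nxt2* and of 23 germ cell genes summed, in each library of 9 d.p.p., as bars from 0, with wild type in blue, *Mov10l1*-/- in orange and hatching for litter code So820. Wild-type library 3, at 4.501 CPM of *Nxf7* and 2.84 CPM of *Nxt2*, was the highest wild-type library for one gene and the lowest for the other.

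At 13 d.p.p. both genes were close to absent from the knockout libraries. *Nxt2* had 1 and 3 counts there, or 0.0721 and 0.0969 CPM, well below the wild-type 11.6 and 6.42 CPM. The pooled knockout level was 0.884% of the wild type (95% counting interval 0.237% to 2.32%). Within the litter codes, each of which holds 1 library of either genotype at this age, it was 0.622% and 1.51%. *Nxf7* had 0 and 2 counts in the knockout and 9 and 4 in the wild type, and its pooled knockout level was 4.62% of the wild type with a wide interval of 0.506% to 20.4%. The fitted log2 fold changes were -6.67 for *Nxt2* (SE 0.631) and -4.36 for *Nxf7* (SE 0.994), and with so few knockout counts they depend on the count that edgeR adds before taking logs. At this age 0.121% of all tested genes were called lower and 0% higher. The summed germ cell genes stood at 796 and 830 CPM in wild-type libraries, against 128 and 86.2 CPM without *Mov10l1*. Their identifiers came from the study's tables of changed genes. Mean knockout levels of *Tex15*, *Etv5* and *Kit* were 28.0, 24.6 and 16.8 CPM, a large part of the knockout sums. The part of germ cell genes in these differences was not tested.

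*Nxt2* was tested between genotypes at 21 d.p.p. and in adults. The choice of the pair, as lower in young testes, names no upper age. If 21 d.p.p. counted as young, the p-values at that age and of the interaction would rest on values that chose the gene. Wild-type libraries of 21 d.p.p. held 8.12 and 8.99 CPM of it, and the knockout libraries 0.0644 and 0.117 CPM, which are 1 and 4 counts. Every wild-type library was above every knockout library. The fitted log2 fold change was -6.56 (SE 0.430, adjusted p = 2.96e-05, edgeR), in a test where 20.9% of all tested genes were called lower and 17.1% higher. The pooled knockout level was 1.16% of the wild type (95% counting interval 0.373% to 2.75%), and between the 2 libraries that share a litter code it was 0.716%. Under the alternatives that could be fitted the log2 fold change ranged from -7.07 to -6.33 and was called each time.

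Adult wild-type libraries held 10.4 and 13.6 CPM of *Nxt2*, and adult knockout libraries 1.36 and 0.895 CPM. The groups were again apart, with a log2 fold change of -3.62 (SE 0.289, adjusted p = 2.14e-05, edgeR). Here 37.2% of all tested genes were called lower and 37.1% higher. The knockout mean was 9.4% of the wild-type mean. Between 21 d.p.p. and adults the knockout mean of *Nxt2* rose 12.4-fold, from 0.0909 to 1.13 CPM, while the wild-type mean was 1.40 times as high. The genotype difference in adults exceeded that at 21 d.p.p. by 2.93 on the log2 scale (SE 0.562, adjusted p = 0.00190), a smaller deficit in adults, in edgeR's test of the interaction over 8 libraries. The median of all genes in that test was 0.29, and 22.3% were called higher and 18.4% lower. Among the 23 germ cell genes 19 were called higher and 0 lower, with a median of 3.63, and 8 lay below *Nxt2*. Of the 11 genes for meiotic and later germ cells 8 were called higher and 1 lower. A positive interaction was therefore not particular to *Nxt2*. It does not always mean a smaller deficit, since 4 of the 23 germ cell genes were called higher in the adult knockout. In the wild type 9 of the 23 were called lower in adults than at 21 d.p.p. and 5 higher, with a median log2 fold change of -0.60. For *Nxt2* the wild-type mean was higher in adults. Without knockout replicate 1 of 21 d.p.p. the interaction was 2.55 (adjusted p = 0.0129), and without knockout replicate 2 of that age it was 3.37 (adjusted p = 0.0177), neither called.

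*Nxf7* did not pass edgeR's filter on low counts at these ages. Knockout libraries of 21 d.p.p. held 0 and 2 counts and the wild-type libraries 1 and 19, so 1 wild-type library, replicate 2, carried nearly all of them. The pooled knockout level was 4.83% of the wild type (95% counting interval 0.547% to 19.9%). With no filter the log2 fold change was -4.11 (SE 0.976, adjusted p = 0.000106, edgeR), and over all paired-end libraries together it was -4.12 (SE 1.06, adjusted p = 0.00682, edgeR). DESeq2 gave -4.47 (SE 1.95, adjusted p = 0.0478), which was not called, so the call depended on the tool. In adults, knockout libraries held 5 counts each, or 0.189 and 0.144 CPM, and the wild-type libraries 4 and 1. The adult ratio was 156% with an interval of 48.4% to 580%, and no difference was detectable at this depth (log2 fold change 0.47, SE 1.03, adjusted p = 0.699, edgeR with no filter).

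Germ cell genes were mostly lower in the knockout along with *Nxt2*, at 21 d.p.p. more than in adults. Of 23 germ cell genes, all identified through the study's tables of changed genes, 20 were called lower and 1 higher in the knockout at 21 d.p.p., with a median log2 fold change of -5.83 beside 0.04 over all genes tested. Of all tested genes 20.9% were called lower and 17.1% higher at that age. In adults 13 germ cell genes were lower, 4 higher and 6 not called, with a median of -1.17 beside 0.14. All tested genes were called lower in 37.2% and higher in 37.1% of cases there. The log2 fold changes of 10 of the 23 at 21 d.p.p. and of 8 in adults were lower than that of *Nxt2*. *Ddx4*, the germ cell RNA helicase, changed by -10.20 and -7.24 at these ages and *Dazl*, an RNA-binding protein of germ cells, by -6.87 and -3.21. All 10 of the genes for meiotic and later germ cells that passed the filter, out of 11, were lower at 21 d.p.p., and all 11 were lower in adults. The summed germ cell genes came to 2695 and 1971 CPM with *Mov10l1* and 109 and 119 CPM without it at 21 d.p.p. The adult sums were 3865 and 4318 CPM with it and 341 and 322 CPM without it. In the knockout a few genes held most of these sums. Mean *Kit*, *Tex15* and *Etv5* were at 40.5, 36.7 and 16.8 CPM there at 21 d.p.p., and at 126, 36.1 and 54.4 CPM in adults. Wild-type means of *Kit* and *Etv5* were 45.6 and 6.20 CPM at 21 d.p.p. and 9.90 and 11.7 CPM in adults. Mean knockout *Ddx4* was 0.255 and 5.05 CPM. The knockout sums are therefore not a measure of the germ cells that remain. The 4 Sertoli cell genes with an identifier, of 11 listed, also came from the study's tables of changed genes. They summed to between 1827 and 1839 CPM in the wild type of 21 d.p.p. and to between 6219 and 6438 CPM in the knockout. At that age 3 of them were called higher. The part of these shifts in the difference of *Nxt2* was not tested.

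*Nxf2*, the other NXF paralog with an identifier, followed a different course. Newborn wild-type libraries held 52.7 and 50.4 CPM, and newborn knockout libraries 75.2 and 57.3 CPM (log2 fold change 0.36, adjusted p = 0.110, edgeR). The values of 9 d.p.p. were 30.7, 34.2 and 27.4 CPM with *Mov10l1* and 25.7 and 25.2 CPM without it, a log2 fold change of -0.36 (adjusted p = 0.0247), not called, in a fit that takes the 2 libraries of 1 knockout animal as replicates. The study itself lists *Nxf2* among its genes changed at 9 d.p.p. at an adjusted p below 0.01. At 13 d.p.p. its groups overlapped, with wild-type libraries at 46.6 and 23.9 CPM and knockout libraries at 28.5 and 25.5 CPM. The wild-type libraries of 21 d.p.p. were at 65.7 and 80.1 CPM and the knockout libraries stood at 31.7 and 21.8 CPM. In the fits made here this was the one age at which *Nxf2* was called lower, by a log2 fold change of -1.67 (SE 0.229, adjusted p = 0.000721). Adults had the opposite order, with 18.9 and 16.9 CPM in wild-type libraries and 28.5 and 29.1 CPM in knockout libraries (log2 fold change 0.49, adjusted p = 0.0128, not called). The change between these ages was itself called, at 2.14 on the log2 scale (SE 0.279, adjusted p = 0.000245). Among wild-type libraries *Nxf2* fell by 0.76 on the log2 scale from 0 to 9 d.p.p. (adjusted p = 0.000180), beside 4.58 for *Nxf7*. Its wild-type mean was 4.08-fold lower in adults than at 21 d.p.p. (log2 fold change -1.90, adjusted p = 0.000127).

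The wider list of nuclear export and transport had 76 genes, of which 9 had an identifier. These were *Nxf7*, *Nxt2* and *Nxf2*, with *Ranbp1*, *Ranbp17*, *Kpna4*, *Srsf1*, *Nup85* and *Nup133*. Identifiers came from the study's tables of genes changed in these or related libraries, so the 9 are not an independent sample of the pathway. At 21 d.p.p. 5 of the 8 that passed the filter were lower and 3 were not called, with a median log2 fold change of -1.23 beside 0.04 over all genes, of which 20.9% were called lower. *Ranbp17*, an importin-beta family transport receptor abundant in testis, was at 70.6 and 66.8 CPM against 7.66 and 6.87 CPM (log2 fold change -3.47, adjusted p = 1.37e-05). *Nup133*, a scaffold subunit of the nuclear pore, was lower by a log2 fold change of -2.17 (adjusted p = 9.13e-05), and *Nup85*, of the same pore subcomplex, by -0.79 (adjusted p = 0.00736). *Kpna4*, an importin alpha, *Ranbp1*, a cofactor of the Ran GTPase cycle, and *Srsf1*, a splicing factor that also acts as an export adaptor, had log2 fold changes of -0.12, -0.37 and -0.43 and were not called.

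In adults 5 of 8 were lower, where 37.2% of all tested genes were, and they were not the same 5 genes. *Nxt2*, *Ranbp17* and *Nup133* were lower at both ages. *Nup85* and *Nxf2* were lower at 21 d.p.p. and not called in adults, and *Kpna4* and *Ranbp1* the reverse. *Ranbp17* was at 108 and 103 CPM against 8.37 and 7.88 CPM (log2 fold change -3.89, adjusted p = 3.98e-07) and was the single gene of the list with a lower fold change than *Nxt2*. Adult wild-type libraries held 426 and 439 CPM of *Kpna4*, and adult knockout libraries 205 and 190 CPM (log2 fold change -1.33, adjusted p = 4.51e-05). In the test of the interaction *Nxt2*, *Nxf2* and *Nup85* were called higher and *Kpna4* lower, and the other 4 were not called, beside 22.3% and 18.4% of all tested genes. In the wild type from 0 to 9 d.p.p., *Nxf7*, *Nxf2*, *Ranbp17* and *Nup133* were lower and *Srsf1* higher. Of all tested genes 25% were called lower and 27.5% higher in that comparison.

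**Figure D3:**
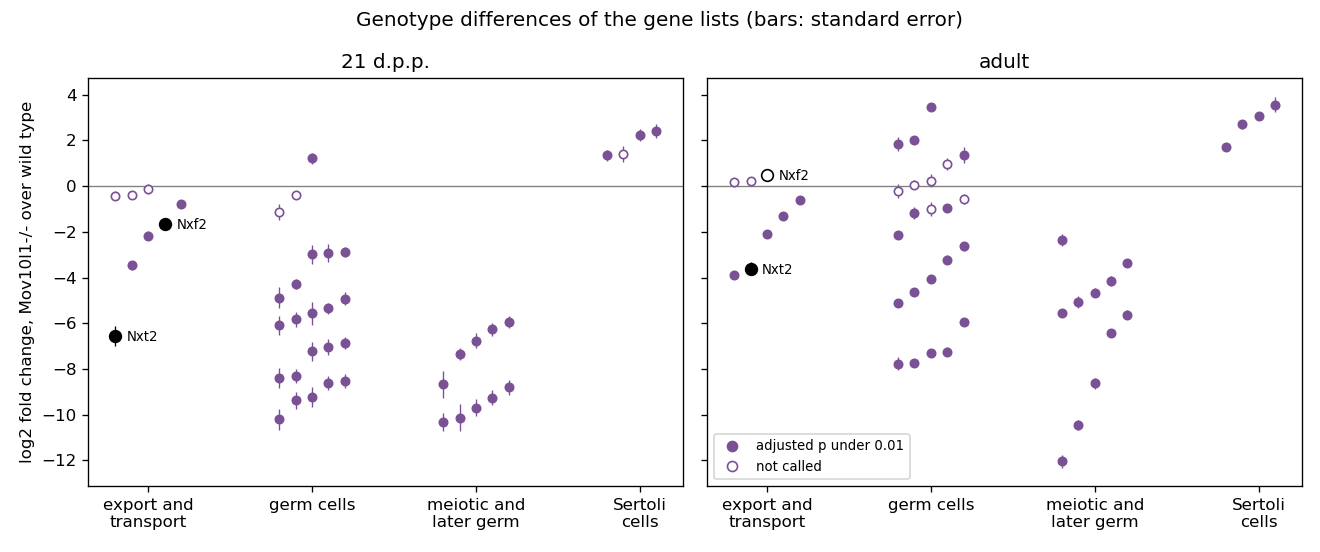
Log2 fold changes, *Mov10l1*-/- over wild type, at 21 d.p.p. and in adults for the genes of 4 lists, with bars for SEs and filled points for an adjusted p below 0.01 (edgeR). *Nxt2*, at -6.56 and -3.62, lay among the germ cell genes at both ages, and *Nxf2* was at -1.67 and 0.49. *Nxf7* did not pass the filter on low counts and is not shown.

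The genes most like each member were found by Pearson's correlation of log2(CPM + 1) over the 21 libraries, among 1002 genes with a symbol. Closest to *Nxf7* were *Piwil4* (r = 0.974), which binds piRNAs in the nucleus of fetal and newborn germ cells, *Kdm1b* (0.969), a histone demethylase, *Dppa4* (0.958), a pluripotency-associated gene, *Egr4* (0.932), a transcription factor, and *Adcy2* (0.930), an adenylate cyclase. Their log2 fold changes from 0 to 9 d.p.p. in the wild type ranged from -4.18 in *Piwil4* to -2.32 in *Adcy2*, beside -4.58 for *Nxf7*. In the newborn knockout *Piwil4* had a log2 fold change of -0.69 and the other 4 lay between -0.13 and 0.57, beside -0.86 for *Nxf7*. In the knockout of 21 d.p.p. the 5 ranged from -5.82 in *Egr4* to -1.64 in *Kdm1b*.

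Closest to *Nxt2* were *Gpat2* (r = 0.944), an acyltransferase of germ cell mitochondria, *Dazl* (0.938), *Rpl10l* (0.938), a testis paralog of a ribosomal protein, *Slc25a31* (0.934), the germ cell ADP/ATP carrier, and *Efna3* (0.930), an ephrin. In the knockout their log2 fold changes ranged from -1.81 to -1.18 at 9 d.p.p., from -8.04 to -4.54 at 21 d.p.p. and from -4.40 to -3.17 in adults. Their genotype differences in adults less those at 21 d.p.p. ranged from 1.36 in *Efna3* to 3.81 in *Rpl10l*, beside 2.93 for *Nxt2*. The likeness used these same libraries, so the values are a description. The members were unlike each other, with r = 0.376, and *Nxt2* ranked 331 of 1002 for *Nxf7*. *Nxf2* had r = 0.597 with *Nxf7* and 0.366 with *Nxt2*. These correlations describe shared courses over age and genotype in libraries that also share scaling and depth, and the candidates were mostly genes the study listed as changed.

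**Figure D4:**
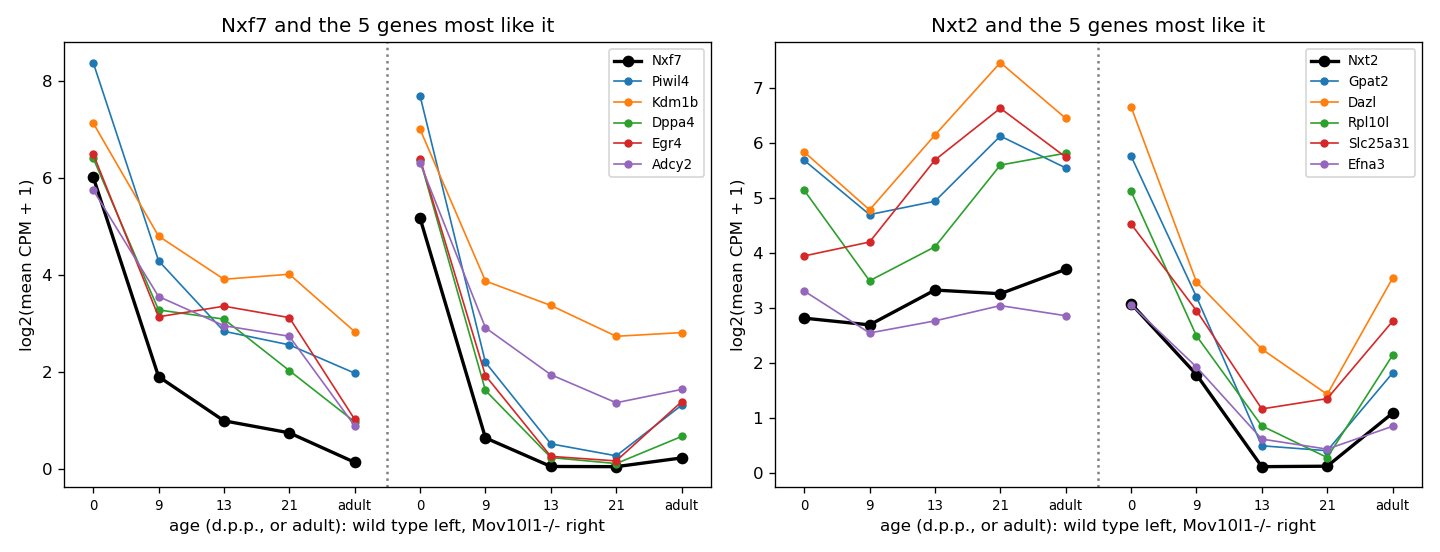
Group means as log2(mean CPM + 1) of *Nxf7* and of *Nxt2* (black), each with its 5 most alike genes, for wild type on the left of each panel and *Mov10l1*-/- on the right. Lines cross from single-end libraries (0 and 9 d.p.p.) to paired-end ones (13 d.p.p. on) and serve only to join a gene's points. *Nxf7* and its set were lower at 9 than at 0 d.p.p. in both genotypes. By these means *Nxt2* and its set were lower in the knockout than in the wild type at every age after 0 d.p.p.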

How the data were processed

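RNA of whole testes was depleted of ribosomal RNA. Alignment by the authors was to MesAur1.0 (STAR 2.7.3a, up to 20 alignments per read), and reads were counted over Ensembl release 99 exons with featureCounts 2.0.0, giving fractions to reads with several alignments or genes. The authors deposited the estimated counts, not normalized. Counts were rounded and fitted for each comparison over all genes with edgeR 4.0.16 (R 4.3.3; TMM, filterByExpr, quasi-likelihood test, Benjamini-Hochberg adjustment, adjusted p below 0.01, the study's threshold). Symbols and positions came from the study's tables and cover 1044 genes. Named genes were the members, *Mov10l1*, *Nxf2*, the export list and the 5 genes most like each member with a mean of at least 1 CPM. The members and lists were chosen with earlier results of these data known. Samples were grouped by their labels. At 9 d.p.p. the genotype fit used wild-type replicates 1 and 2, as in the study's source data.

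Alternatives were DESeq2 1.42.0, RLE scaling, no filter, at least 10 counts in every library, joint fits, a replicate block and leaving out each library. Ratios within a litter code and CPM of plain totals were added after seeing the data. Scripts were tested on simulated data. Python 3.11.15, pandas 2.3.3, numpy 2.4.6, scipy 1.17.1 and matplotlib 3.10.9 served for levels and plots. Replicate numbers mark a shared litter code only at 13 d.p.p., where deviations of same-numbered libraries from their group means had r = 0.185. Animal codes in the labels differ between all libraries except both knockout libraries of 9 d.p.p., which enter no test of the members.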

Additional observations from a re-analysis of the deposited data

Results flagged for a closer look

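The genotype effect differed between adults and 21 d.p.p. in edgeR's test of the interaction for 4 of the 8 tested genes of the export and transport list. Over all tested genes 22.3% were called higher and 18.4% lower in that test, so the share is near the background. The difference, adults less 21 d.p.p. on the log2 scale, was 2.93 for *Nxt2*, 2.14 for *Nxf2* and 0.999 for *Nup85* (adjusted p = 0.00459), beside a median of 0.29 over all genes and of 3.63 over the 23 germ cell genes. It was -1.23 for *Kpna4* (adjusted p = 0.00342). The call of *Nxt2* was lost without knockout replicate 1 of 21 d.p.p. (adjusted p = 0.0129) and without knockout replicate 2 of that age (adjusted p = 0.0177). No group held enough libraries for a test of single outlying libraries.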

How the results depend on the processing

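*Nxt2* stayed called lower at 21 d.p.p. and in adults, and *Nxf7* stayed called lower at 9 than at 0 d.p.p., under all alternatives that gave a value. For *Nxf7* that call rests on libraries that also chose the pair. With at least 10 counts in every library *Nxt2* at 21 d.p.p. had no value, and *Nxf7* at 13 d.p.p. could be fitted without only 1 of the 4 libraries. Without single libraries the genotype difference ranged from -1.09 to -0.70 for *Nxf7* and from -0.12 to 0.59 for *Nxt2* at 0 d.p.p., and from -1.63 to -1.29 for *Nxt2* at 9 d.p.p. Over the 5 libraries of that age it was -2.31 for *Nxf7* and -1.17 for *Nxt2*. The wild-type difference of *Nxt2* between 9 and 0 d.p.p. turned to 0.13 with the replicate block, which leaves out wild-type replicate 3, and ranged from -0.45 to 0.14 without single libraries. Between 21 and 13 d.p.p. it turned to -0.082 in the joint fit and ranged from -0.28 to 0.54. No call of either gene changed with the block. In the tested comparisons its numbers do not mark a shared litter code, so the unchanged calls are no support. Same-numbered libraries deviated in opposite directions at 9 d.p.p. (r = -0.139) and 21 d.p.p. (r = -0.259), and with the numbers of the knockout swapped the block called 2087 and 7619 genes, beside 583 and 5637 with no block. The interaction of *Nxf7* was 4.504 with no filter (adjusted p = 0.0170, edgeR), not called. The interaction of *Nxt2* ranged from 2.55 to 3.37 without single libraries. The causes were not tested. Genes called at 21 d.p.p. numbered 5637, and 2788 without knockout replicate 2. In the wild type of 21 against 13 d.p.p. they numbered 554, with 1580 without a filter, 200 with at least 10 counts, 1142 in DESeq2, 2107 in the joint fit, 1252 with the block and 127 to 1124 without single libraries. With plain library totals the newborn knockout ranked 1 of 10 groups for *Nxt2*, and 4 with TMM, so no order of levels is drawn across kinds of library. Depth limits *Nxf7* after 9 d.p.p. and both genes in the knockout of 13 and 21 d.p.p., where 4 counts or fewer stand behind a value.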
